A study of Sus scrofa with 3 samples.

Results

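The genes described here encode the proteins that copy the genome once per cell division. Of 48 gene names chosen for that function, 41 were found by name in the deposited table of 30477 pig genes, each as a single entry. The names CCNE1, CDT1, MCM5, POLA2, POLE2, PRIM1 and RRM2 were not found there and are left out of all counts unless stated. RNA was sequenced from 3 cultures of adipose-derived mesenchymal stem cells (MSC), which are adherent stromal cells that can be expanded in dishes. The cells came from adult pigs (Sus scrofa) and grew in advanced MEM, a culture medium, to which human platelet lysate, a source of growth factors, was added. The labels place all cultures in 1 group with no treatment or genotype, and number them 1, 2 and 3. Each culture also carries an identifier of its own, whose meaning the labels do not state, and no passage or cell density is stated. The data therefore address how strongly each replication gene was expressed and how far the cultures differed, and any spread between these samples may be partly technical.

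Replication begins when the origin recognition complex (ORC) sits on DNA and, with CDC6 and CDT1, loads the ring-shaped MCM helicase. CDC45 and the GINS complex join the ring and, with MCM10, switch it on. DNA polymerase alpha with primase starts each strand, polymerases delta and epsilon extend it on the sliding clamp PCNA, which the RFC complex loads, and RPA covers the single strands. FEN1 and LIG1 process and seal the pieces of the lagging strand, and ribonucleotide reductase, thymidylate synthase and thymidine kinase supply the nucleotides. In mammalian cells many of these genes are activated by E2F transcription factors shortly before S phase, so that they are low in resting cells, whereas several ORC subunits are made throughout the cycle.

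The deposited unit is RPKM, in which reads are scaled to the length of the gene model and to the reads counted over all genes of the library. The libraries of cultures 1, 2 and 3 held 51788677, 62248183 and 64774044 such reads. The library of culture 1 stood apart in composition. A class of small, ribosomal, mitochondrial transfer and miscellaneous RNA genes held 28.3% of its reads, against 9.12% and 8.36% in cultures 2 and 3. These kinds of RNA were not counted apart. The library of culture 3 held the most reads but covered 24503 genes, against 28310 and 28395 in cultures 1 and 2. Over all genes with a read, its median was 0.0915 RPKM, against 0.144 and 0.151 RPKM. Shares of all genes that compare culture 3 with another culture include these low genes unless filtered. Of 7 measured MSC surface markers 6 lay above 1 RPKM, all but ALCAM, while the 5 adipocyte markers and the 4 measured lymphocyte markers lay below 1 RPKM (limma, adjusted p under 0.05). Of 7 measured markers that MSC should lack, 5 lay below 1 RPKM, while CD14 (2.29, 1.78 and 2.28 RPKM) and CD79A (125, 72.6 and 69.7 RPKM) lay above. Of 5 endothelial markers 4 lay below and PECAM1 (1.31, 2.97 and 1.48 RPKM) above. CD79A and PECAM1 share their bodies with genes of more reads. Of 5 macrophage markers 4 lay below and TYROBP was not decided, and of 5 pericyte markers 2 lay below and 3 were not decided. The replication genes rested on 22 to 17888 reads per culture, and 7 of the 41 had fewer than 100 reads in at least 1 culture. In bulk RNA, more cells in S phase and more RNA per cell cannot be told apart.

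Most replication genes were expressed at low to moderate levels, and 26 of 41 lay above 1 RPKM in limma's test of log2(RPKM + 0.5), while 2 lay below and 13 were not decided. Over all 29479 genes with a read, 30.6% lay above and 60.8% below, and over protein-coding genes with a read 42% lay above. The mean over the cultures reached 10 RPKM for 10 of the genes, lay between 1 and 10 RPKM for 26 and under 1 RPKM for 5. The median over the 41 genes was 2.51, 4.74 and 1.73 RPKM in cultures 1, 2 and 3, beside 0.609, 0.909 and 0.731 RPKM for protein-coding genes. At least 1 RPKM was reached by 31, 39 and 27 of the 41 genes in cultures 1, 2 and 3, against 33.5%, 36.5% and 35.2% of all genes and 45.6%, 49.2% and 47.2% of protein-coding genes. Leaving out 1 culture at a time gave 18 to 28 genes above 1 RPKM, and the 18 were those without culture 1.

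Culture 2 held the highest level of 37 of the 41 genes. Among all genes with a read 44.6% were highest in culture 2, as were 48.8% of protein-coding genes and 54.4% of those averaging 1 RPKM or more. The exceptions were RPA1 and RPA3, highest in culture 1, and ORC4 and MCM10, highest in culture 3. The gene's level in culture 2 was more than 2-fold that in each other culture for 20 of 41, against 8.62% of all genes and 7.57% of protein-coding genes with a read. With the planned filter, a mean of 1 RPKM or more, 32 of 36 genes were highest in culture 2, against 56.5% of protein-coding genes so filtered. Of the 36, 16 exceeded both others by more than 2-fold, against 2.99% of all and 3.08% of protein-coding genes so filtered, and 34 were higher in culture 2 than in culture 3, against 68.7%. CCNE2, CDC45, E2F1, LIG1 and UHRF1 passed that filter through culture 2 alone, so the filtered counts carry no weight of their own. Each culture is 1 library, and these differences have no replicate check.

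The size of the difference varied widely from gene to gene. The ratio of culture 2 to culture 1 had a median of 2.07 over the 41 genes and ran from 0.669 (RPA3) to 6.35 (GINS2). The ratio of culture 2 to culture 3 had a median of 2.49 and ran from 0.806 (ORC4) to 6.56 (MCM3). The median gene averaging 1 RPKM or more had ratios of 1.30 and 1.13. The 95% exact binomial interval of the reads, which covers counting error only, lay above 1 for 38 of 41 genes in each of these comparisons. Cultures 1 and 3 were closer to each other, with a median ratio of culture 1 to culture 3 of 1.07. Of the 41 genes, 23 were higher in culture 1, against 62.2% of all and 56.2% of protein-coding genes with a read. With the planned filter 22 of 36 were higher in culture 1, against 38.8% of all genes so filtered. For 15 of the 41 genes the counting interval of the ratio of culture 1 to culture 3 included 1. The order of cultures 1 and 3 depended on the scaling: 32 of 41 genes were higher in culture 1 with reads scaled to protein-coding genes (median ratio 1.35), but 18 with median-of-ratios factors (0.917) and 19 with TMM factors (0.951).

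**Figure D1:**
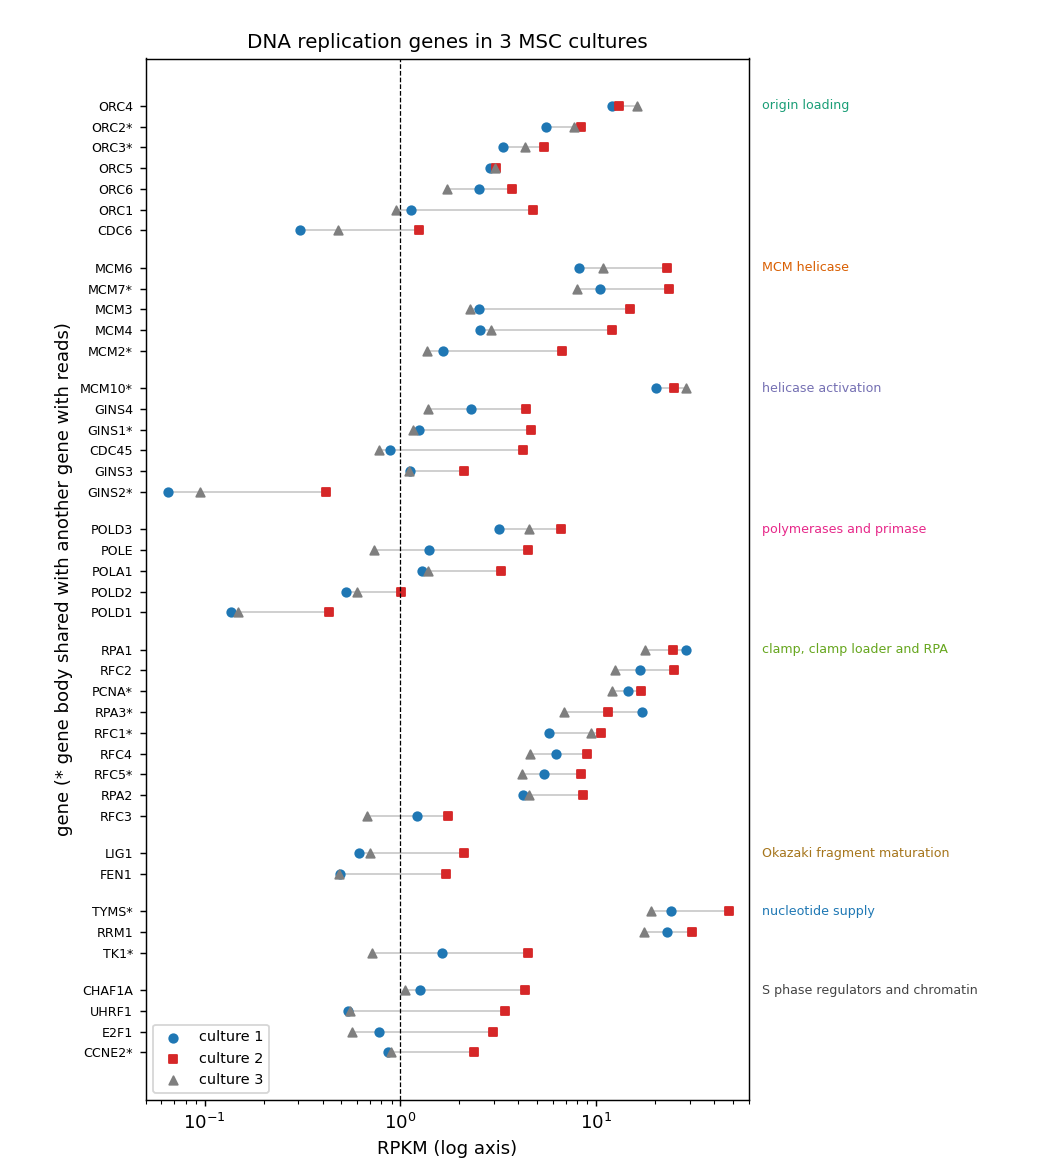
RPKM of each of the 41 replication genes (rows, grouped by role) in culture 1 (circles), culture 2 (squares) and culture 3 (triangles), on a log axis with 1 RPKM as a dashed line. Squares lie rightmost for 37 genes, the rows of ORC4, ORC5 and MCM10 are narrow, and those of MCM3, UHRF1 and GINS2 are wide.

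**Figure D2:**
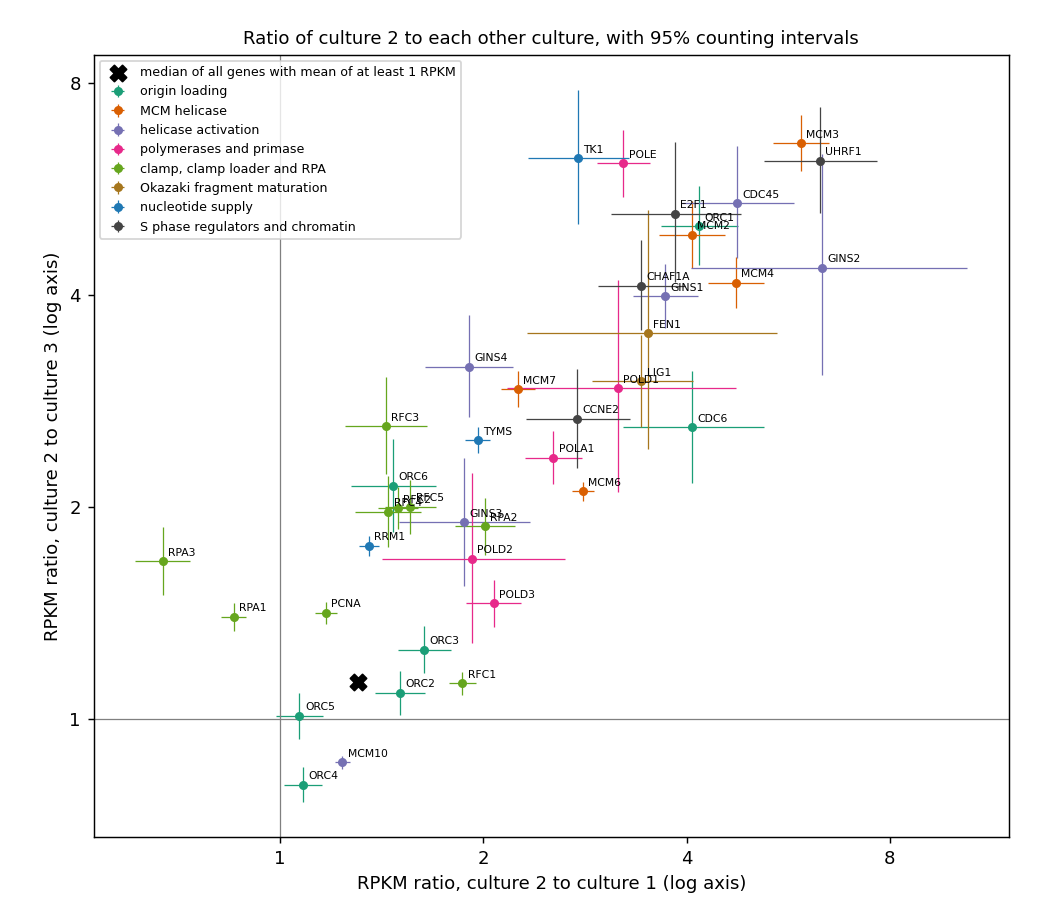
Ratio of RPKM in culture 2 to culture 1 (horizontal, log axis) and to culture 3 (vertical, log axis) for the 41 genes, coloured by role, with 95% counting intervals. The cross is the median gene averaging 1 RPKM or more (1.30 and 1.13), and MCM3 (5.90 and 6.56) and UHRF1 (6.29 and 6.20) lie at the far corner.

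The subunits of the MCM2 to MCM7 helicase, the ring that unwinds DNA at the fork, were all expressed and were several-fold higher in culture 2. All 5 measured subunits lay above 1 RPKM. MCM3 (ENSSSCG00000025488, chromosome 7, 46084661 to 46104375 on susScr11) had 2.52, 14.9 and 2.27 RPKM in cultures 1, 2 and 3. MCM4 (ENSSSCG00000006273, chromosome 4, 79674737 to 79687307) had 2.55, 12.1 and 2.90 RPKM, and MCM2 had 1.64, 6.67 and 1.37 RPKM. For these subunits culture 2 thus stood 4.07 to 6.56-fold over the others, which lay close together. MCM6 (ENSSSCG00000035564, chromosome 15, 15917042 to 15985405), at 8.13, 22.8 and 10.9 RPKM, and MCM7, at 10.4, 23.4 and 7.97 RPKM, were more abundant in cultures 1 and 3 and differed less, by 2.10 to 2.94-fold. The subunits work in equal numbers in the ring, yet their RPKM differed within a culture. MCM2 and MCM7 differed by 6.34-fold in culture 1 and by 3.51-fold in culture 2. In culture 3, MCM2 and MCM6 differed by 7.92-fold. MCM7 shares its body with AP4M1 and with COPS6, which had more reads than MCM7 over the cultures together. COPS6 had 9.13, 7.44 and 5.52 RPKM. The reads of AP4M1 came to 39.7% of those of MCM7. MCM2 shares its body with TPRA1, whose reads came to 55.3% of its own. The part of COPS6, AP4M1 and TPRA1 in the levels and ratios of MCM7 and MCM2 was not tested. The call above 1 RPKM (limma, adjusted p = 0.038 for MCM3, 0.00080 for MCM4 and 0.0083 for MCM2) was lost without culture 1 for each of these genes (adjusted p = 0.096, 0.056 and 0.16) and without culture 2 for MCM2 (0.20). MCM3 also lost it with a pseudocount of 1 RPKM (adjusted p = 0.12), with reads scaled to protein-coding genes (0.061) and with voom weights (0.078), and MCM2 with a pseudocount of 1 RPKM (0.083).

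Among the factors that bind origins and load the helicase, ORC2 to ORC6 differed by at most 2.14-fold between cultures, and ORC1 and CDC6 by more than 4-fold. Of 7 measured, 5 lay above 1 RPKM and 2 were not decided. ORC4 (ENSSSCG00000015668, chromosome 15, 4096646 to 4171845), highest of the group, had 12.0, 13.01 and 16.1 RPKM. ORC5 had 2.86, 3.06 and 3.03 RPKM, the smallest ratio of highest to lowest among the 41 genes, at 1.07 with a counting interval of 0.986 to 1.16. Its gene model spans 458 kb, against 87.7 kb in RefSeq's annotation, and the part of this in its narrow range was not tested. ORC2, at 5.55, 8.35 and 7.68 RPKM, and ORC3, at 3.32, 5.42 and 4.33 RPKM, were lowest in culture 1. ORC6, the smallest subunit, had 2.51, 3.70 and 1.73 RPKM. ORC1, the large ATPase subunit whose level is known to change through the human cell cycle, had 1.13, 4.74 and 0.947 RPKM, or 4.17-fold more in culture 2 than in culture 1 and 5.01-fold more than in culture 3. CDC6, the ATPase that helps load the helicase, was lowest with 0.307, 1.25 and 0.482 RPKM. ORC1 and CDC6 were thus the pair in this group with culture 2 above both others by more than 2-fold. The call of ORC6 (limma, adjusted p = 0.00043) was lost without culture 1 (0.066), while ORC1 (0.072) passed above without culture 3 (0.034), with a pseudocount of 0.1 RPKM (0.013) and with protein-coding reads (0.044). CDC6 (limma, adjusted p = 0.095) passed below without culture 2 (0.035), with a pseudocount of 0.1 RPKM (0.047) and with voom weights (0.038).

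The factors that turn the loaded helicase into an active one were low, apart from MCM10. Of 6 measured, 3 lay above 1 RPKM, 1 below, and CDC45 and GINS3 were not decided. CDC45, which joins the ring at firing, had 0.886, 4.203 and 0.780 RPKM (4.74-fold and 5.39-fold more in culture 2 than in cultures 1 and 3). The 4 GINS subunits, which form a single complex, had unequal levels. GINS4 had 2.29, 4.37 and 1.38 RPKM, GINS1 1.24, 4.63 and 1.16, and GINS3 1.12, 2.10 and 1.11. GINS2 lay below 1 RPKM with 0.0653, 0.415 and 0.0949 RPKM, from 22, 168 and 40 reads, and its ratio of culture 2 to culture 1 of 6.35 had a counting interval of 4.06 to 10.4. All GINS subunits and CDC45 were highest in culture 2. The calls of GINS4 (limma, adjusted p = 0.0011) and GINS1 (0.035) were lost without culture 1 (0.13 and 0.19) or without culture 2 (0.11 and 0.54). GINS1 also lost it with a pseudocount of 1 RPKM (limma, adjusted p = 0.091) and in the set averaging 0.1 RPKM or more (0.094), and GINS3 (0.21) passed above with protein-coding reads (0.025).

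MCM10, a scaffold of helicase activation, went against its group, with 20.1, 24.9 and 28.7 RPKM and the highest value in culture 3. Its gene model (ENSSSCG00000035059, chromosome 10, 48480700 to 48582857) spans 102 kb and shares its body with OPTN, the autophagy receptor optineurin. OPTN had 50.7, 51.0 and 69.6 RPKM and was also highest in culture 3. In RefSeq's annotation of Sscrofa11.1 the span of MCM10 is 42.6 kb. The strand setting of the counting is not given in the sources used here, so reads of the pair cannot be told apart, and the part of OPTN in the level of MCM10 was not tested.

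**Figure D3:**
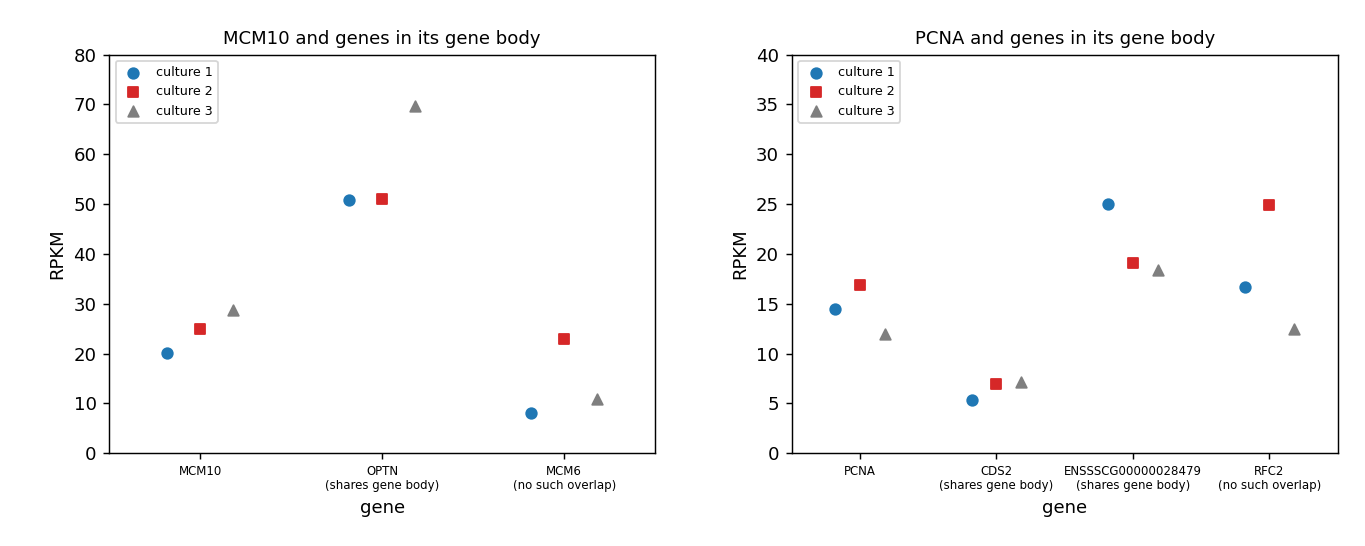
RPKM in culture 1 (circles), culture 2 (squares) and culture 3 (triangles) of MCM10 with OPTN and MCM6 (left), and of PCNA with CDS2, ENSSSCG00000028479 and RFC2 (right). MCM10 and OPTN are both highest in culture 3, at 28.7 and 69.6 RPKM, and MCM6 and RFC2, drawn as members without such an overlap, are highest in culture 2, as are 12 of the 14 members with one; ORC4 and RPA1, also without one, are not.

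Subunits of the replicative polymerases were mostly low. Of 5 measured, POLD3 and POLA1 lay above 1 RPKM, POLD1 lay below, and POLE and POLD2 were not decided. POLD3, an accessory subunit of polymerase delta, was highest with 3.18, 6.59 and 4.52 RPKM. POLE (ENSSSCG00000033051, chromosome 14, 22798192 to 22853547), the catalytic subunit of the leading-strand polymerase, had 1.39, 4.48 and 0.729 RPKM, the widest range of the group at 6.14-fold. POLA1, the catalytic subunit of polymerase alpha, had 1.28, 3.26 and 1.39 RPKM. POLD2 had 0.524, 1.01 and 0.598 RPKM, the narrowest range of the group at 1.92-fold, and POLD1, the catalytic subunit of polymerase delta, only 0.137, 0.434 and 0.147 RPKM from 35, 133 and 47 reads. All 5 were highest in culture 2. The call of POLA1 (limma, adjusted p = 0.024) was lost without culture 1 (0.11), culture 2 (0.34) or culture 3 (0.056) and in the set averaging 0.1 RPKM or more (0.057), while POLE (0.087) passed above without culture 3 (0.019) and with a pseudocount of 0.1 RPKM (0.020).

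The clamp, its loader and the single-strand binding proteins were mostly well expressed and differed moderately between cultures. Of 9 measured, 8 lay above 1 RPKM and RFC3 was not decided, and 0 of 9 exceeded both other cultures by more than 2-fold in culture 2. RPA1 (ENSSSCG00000017822, chromosome 12, 48009724 to 48048734), the large subunit of RPA, had 28.8, 24.6 and 17.6 RPKM. RPA3, the small subunit, had 17.1, 11.5 and 6.85 RPKM, and was 2.50-fold higher in culture 1 than in culture 3. RPA2, the middle subunit, had 4.23, 8.50 and 4.54 RPKM. The order of the cultures thus differed between subunits of 1 complex, with RPA1 and RPA3 highest in culture 1 and RPA2 in culture 2. The gene model of RPA3 spans 26.2 kb, against 3.997 kb in RefSeq's annotation, and shares its body with GLCCI1 and UMAD1, whose reads came to 53.6% and 46.7% of its own, and their part in its order was not tested. RFC2 was the most abundant loader subunit, at 16.7, 24.9 and 12.5 RPKM. RFC1, the large subunit, had 5.70, 10.6 and 9.44 RPKM, RFC4 6.22, 8.99 and 4.57, and RFC5 5.37, 8.37 and 4.19, the last with a gene model of 28.6 kb against 12.2 kb in RefSeq's annotation. RFC3 was lowest, at 1.22, 1.75 and 0.671 RPKM, with a range of 2.60-fold, the largest of the group. All 5 RFC subunits were highest in culture 2, and all but RFC1 were lowest in culture 3.

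PCNA, often used as a marker of dividing cells, had 14.5, 16.9 and 12.0 RPKM and ranged 1.41-fold, the smallest ratio of its group. Its gene model (ENSSSCG00000030642, chromosome 17, 14125814 to 14185276) spans 59.5 kb, against 4.84 kb in RefSeq's annotation. The span contains reads of CDS2, at 5.35, 6.95 and 7.10 RPKM, and of an unnamed gene, ENSSSCG00000028479, at 25.01, 19.0 and 18.4 RPKM. The reads of both together were more numerous than those of PCNA itself in each culture. CDS2 was highest in culture 3 and the unnamed gene in culture 1, and their part in the narrow range of PCNA was not tested.

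The enzymes that finish the lagging strand were near 1 RPKM and higher in culture 2. LIG1, the DNA ligase, had 0.614, 2.10 and 0.698 RPKM, or 3.43-fold and 3.01-fold more in culture 2 than in cultures 1 and 3. FEN1, the flap nuclease, had 0.489, 1.71 and 0.486 RPKM from 29, 122 and 36 reads, or 3.50-fold and 3.53-fold more. Its gene model spans only 1.14 kb, against 4.86 kb in RefSeq's annotation, and the part of this in its level was not tested. Neither LIG1 nor FEN1 was decided against 1 RPKM (limma, adjusted p = 0.96 and 0.43).

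Genes of nucleotide supply held the most abundant member of all. TYMS (thymidylate synthase, ENSSSCG00000040678, chromosome 6, 105640031 to 105660601) had 24.1, 47.3 and 19.0 RPKM. RRM1, the large subunit of ribonucleotide reductase, had 22.8, 30.9 and 17.6 RPKM and ranged 1.76-fold. TK1, the thymidine kinase of dividing cells, had 1.62, 4.48 and 0.718 RPKM and ranged 6.24-fold. TYMS and RRM1 lay above 1 RPKM, and TK1 was not decided. All 3 were highest in culture 2 and lowest in culture 3. The gene model of TK1 spans 161 kb, against 8.83 kb in RefSeq's annotation, and holds 6 other genes that each had at least 10% of its reads, among them BIRC5, the mitotic gene survivin, at 1.78, 6.02 and 0.669 RPKM. TK1 and BIRC5 thus had the same order of cultures, as did AFMID, SOCS3, TMC8 and ENSSSCG00000031600 in its body, but not ENSSSCG00000033883. The reads of SOCS3, AFMID and BIRC5 came to 285%, 146% and 93.2% of those of TK1. The part of these genes in TK1 was not tested. TK1 (limma, adjusted p = 0.064) passed above 1 RPKM without culture 3 (0.011) and with a pseudocount of 0.1 RPKM (0.011).

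The regulators of S phase entry and of chromatin copying were low in cultures 1 and 3 and 2.67-fold to 6.29-fold higher in culture 2. E2F1, the transcription factor that drives many replication genes, had 0.773, 2.97 and 0.569 RPKM. Cyclin E2 (CCNE2), a partner of CDK2 at the start of S phase, had 0.866, 2.39 and 0.895 RPKM, the narrowest range of the group. UHRF1, which keeps DNA methylation during copying, had 0.543, 3.42 and 0.551 RPKM and the widest range. CHAF1A, a subunit of the histone chaperone at the fork, had 1.26, 4.32 and 1.05 RPKM. All 4 exceeded both other cultures by more than 2-fold in culture 2. Only CHAF1A lay above 1 RPKM (limma, adjusted p = 0.045), a call lost without culture 1 (0.23), without culture 2 (0.64), with a pseudocount of 1 RPKM (0.099) and in the set averaging 0.1 RPKM or more (0.11).

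**Figure D4:**
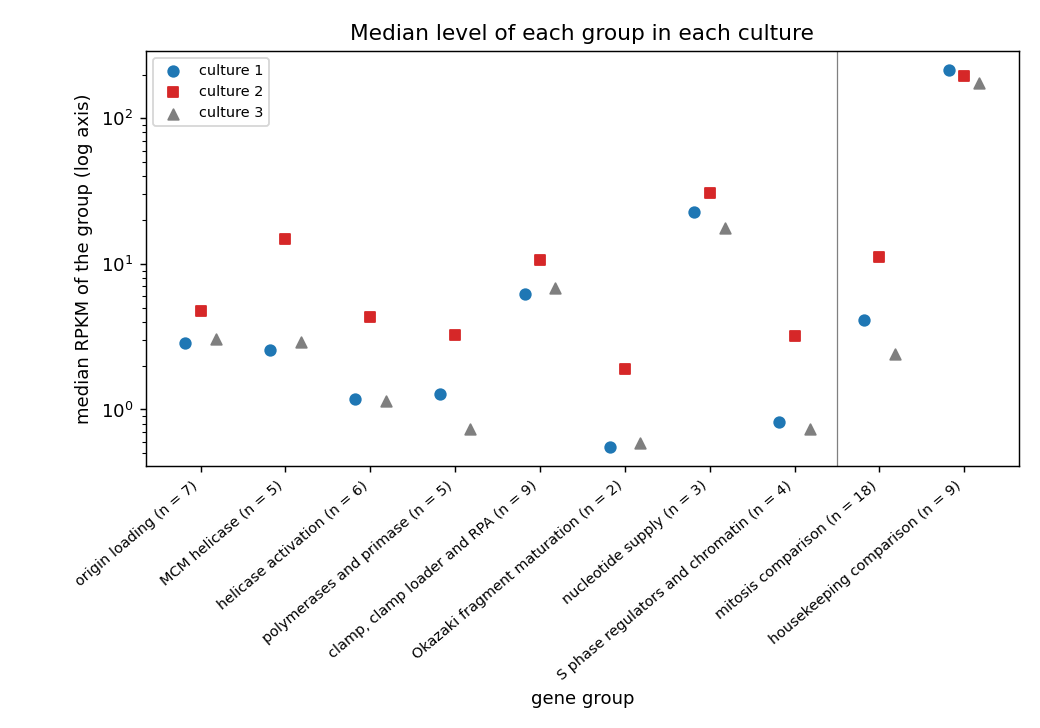
Median RPKM (log axis) of each role group of replication genes, and of the mitosis and housekeeping lists right of the line, in culture 1 (circles), culture 2 (squares) and culture 3 (triangles), with the number of genes. The MCM group moves from 2.55 and 2.90 RPKM in cultures 1 and 3 to 14.9 in culture 2, more than the origin loading group (2.86, 3.03 and 4.74). The housekeeping list has 216, 196 and 174 RPKM in cultures 1, 2 and 3. Of its 9 genes, 5 are highest in culture 2 and 4 in culture 1. Only ACTB (71.5, 172 and 74.0 RPKM) exceeds both others by more than 2-fold in culture 2.

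The groups therefore differed in how much culture 2 stood out, which was described and not tested. The median ratio of culture 2 to culture 1 and to culture 3 was 4.07 and 4.16 for the MCM ring, 3.63 and 4.67 for the regulators, and 2.81 and 3.57 for helicase activation. It was 1.51 and 1.25 for origin loading and 1.45 and 1.88 for the clamp, loader and RPA group. Comparing groups inside a culture reduces the effect of scaling between libraries, but with the added 0.5 RPKM it does not cancel fully. On the log2(RPKM + 0.5) scale, over genes averaging 1 RPKM or more, the median of the MCM ring lay 1.14 below that of the clamp, loader and RPA group in culture 1 (a difference of -1.14) and differed by -1.11 in culture 3, but by 0.47 in culture 2. Against the origin loading group the differences were -0.23, 1.46 and -0.28 in cultures 1, 2 and 3.

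No replication gene passed the test of spread between cultures after adjustment when all cultures were included. The test compared each gene's variance over the cultures with the variance limma gives for genes of like level, by a one-sided F test on 2 residual degrees of freedom. Without a filter on low values, 12 of 41 genes had an unadjusted p under 0.05, against 6.93% of 29479 genes, and 0 of 41 passed after Benjamini-Hochberg adjustment over all genes, against 0.417%. With the filter, 8 of 36 had an unadjusted p under 0.05, against 5.93% of 10474 genes, and 0 of 10474 passed after adjustment. The lowest unadjusted values were those of MCM3 (0.0078), MCM4 (0.017) and MCM2 (0.026), followed by TK1, POLE, ORC1, CDC45 and UHRF1. CDC45 and UHRF1 passed the filter through culture 2 alone, so the filtered count carries no weight of its own. Without culture 3, MCM3 passed (limma, adjusted p = 0.038). Without culture 2, 0 of 36 genes had an unadjusted p under 0.05, and without culture 1, 16 did.

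Scaling by library composition lowered culture 2 against the others without removing its lead for most genes. Trimmed-mean (TMM) factors shifted culture 2 by -0.18 against culture 1 and by -0.35 against culture 3 on the log2 scale, and median-of-ratios factors by -0.24 and -0.46. Scaling to protein-coding reads shifted it by -0.33 against culture 1 and by 0.0036 against culture 3. Of the 41 genes, 33, 32 and 35 remained highest in culture 2 under the 3 scalings, and 17, 15 and 19 by more than 2-fold over both others. The median ratio to culture 3 under median-of-ratios factors was 1.80 for the 41 genes and 0.818 for all genes averaging 1 RPKM or more. ORC2, ORC3, ORC5 and RFC1 became highest in culture 3 with TMM and median-of-ratios factors. PCNA became highest in culture 1 with median-of-ratios factors and with protein-coding reads, and ORC5 with protein-coding reads, so no order of the cultures is given for these genes beyond the deposited scale.

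Of the 41 genes, 14 shared their gene body with another gene whose reads came to at least 10% of their own. Besides MCM10, PCNA and TK1 these were CCNE2, GINS1, GINS2, MCM2, MCM7, ORC2, ORC3, RFC1, RFC5, RPA3 and TYMS. For GINS2, CCNE2, ORC2 and RFC5 the overlapping genes COX4I1 and GSE1, INTS8, BZW1 and WSB2 had several times the reads of the replication gene. Among the 27 genes with no such overlap, 25 were highest in culture 2, 14 by more than 2-fold over both others, and 15 lay above 1 RPKM. Their median ratios of culture 2 to cultures 1 and 3 were 2.54 and 2.59, so the difference was as large without the overlapped genes.

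Of the 7 names not found, 4 could be placed through their Ensembl IDs. These were primase (PRIM1, 1.74, 4.48 and 1.66 RPKM), the polymerase alpha subunit POLA2 (1.41, 3.75 and 1.19), cyclin E1 (CCNE1, 1.13, 1.83 and 0.9496) and the loading factor CDT1 (0.151, 0.491 and 0.0603). All 4 were highest in culture 2. PRIM1 and POLA2 lay above 1 RPKM and CDT1 below (limma, adjusted p = 0.0015, 0.020 and 5.7e-07).

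Other genes of the replication pathway were also mostly expressed and mostly highest in culture 2. Of 28 measured beyond the 41, 19 lay above 1 RPKM and 3 below, beside 30.6% and 60.8% of all genes with a read. In culture 2, 27 were highest and 11 exceeded both others by more than 2-fold, beside 44.6% and 8.62%. Their median ratios of culture 2 to cultures 1 and 3 were 1.88 and 1.72, beside 2.07 and 2.49 for the 41, a difference that was not tested. The most abundant were CDK2 (43.9, 45.7 and 39.6 RPKM), the S phase kinase, whose body is shared with another gene with reads, TOP1 (23.7, 32.9 and 30.1), a topoisomerase that relaxes DNA ahead of the fork, and FAM111A (15.7, 32.6 and 31.7), a protease at the fork. Among those averaging 1 RPKM or more, the widest ranges were those of TOP2A (6.78-fold), PCLAF, a PCNA-binding factor with 3.08, 9.79 and 1.45 RPKM, and TIMELESS, a fork protection factor with 0.394, 2.23 and 0.479 RPKM, which also shares its body with another gene with reads and reached that average through culture 2 alone.

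Further nucleotide genes and chromatin genes were mostly expressed too. Of 10 nucleotide genes 8 lay above 1 RPKM and 1 below, beside 30.6% and 60.8% of all genes with a read. In culture 2, 1 exceeded both other cultures by more than 2-fold, beside 8.62% of all genes. This was CTPS1 (CTP synthase, 4.90, 12.0 and 5.997 RPKM). DUT, which removes dUTP, had 32.1, 32.9 and 10.8 RPKM and was low in culture 3 alone. Of 10 chromatin genes 7 lay above and 0 below, and 6 exceeded both others, beside the same shares of all genes. The FACT subunits SSRP1 (26.1, 52.7 and 30.2 RPKM) and SUPT16H (20.8, 42.2 and 36.8) were among the most abundant, and ASF1B, a histone chaperone of dividing cells, had 1.71, 4.09 and 0.612 RPKM.

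Of 19 genes of the E2F and RB family with their cyclins, 15 lay above 1 RPKM and 2 below, beside 30.6% and 60.8% of all genes with a read. In culture 2, 15 were highest, beside 44.6% of all and 48.8% of protein-coding genes with a read. The cyclins CCND2 (40.4, 58.9 and 48.7 RPKM) and CCND1 (28.5, 48.4 and 34.3) and the kinase CDK4 (37.8, 44.0 and 31.3) were the most abundant and varied by less than 2-fold, and CDK4 shares its body with TSPAN31, which had more reads. E2F8, a repressor that is itself an E2F target in mammals, had 1.39, 5.33 and 0.792 RPKM, and CDK6 9.43, 25.7 and 15.3 RPKM. TFDP2, a partner of E2F proteins, instead had its highest value in culture 3 (1.45, 3.19 and 6.08 RPKM), and an unnamed gene in its body had more reads. Of 6 inhibitors of cyclin-dependent kinases, 1 was highest and 3 were lowest in culture 2. Among genes averaging 1 RPKM or more, as all 6 did, 54.4% were highest and 1274 of 10474 lowest there. CDKN1A (p21) was by far the most abundant at 211, 174 and 240.4 RPKM. CDKN1B (p27) had 16.7, 10.7 and 13.04 RPKM, and CDKN1C had 3.72, 0.372 and 0.626 RPKM. These 3 were lowest in culture 2. CDKN2D (2.48, 2.81 and 1.69 RPKM) was highest in culture 2. CDKN2B (0.486, 1.11 and 1.77 RPKM) was lowest in culture 1, and CDKN2C (4.65, 4.22 and 1.13 RPKM) in culture 3.

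Genes of mitosis, the step that follows replication, also peaked in culture 2 but separated cultures 1 and 3 more. All 18 measured were highest in culture 2, beside 54.4% of genes averaging 1 RPKM or more. For the mitotic genes the median ratios of culture 2 were 2.19 to culture 1 and 5.94 to culture 3. TOP2A had 15.7, 42.9 and 6.32 RPKM, CCNB1 15.4, 27.9 and 3.84, and CDC20 3.77, 12.8 and 1.06. The order culture 2, then 1, then 3 held for 16 of 18 mitotic genes and for 21 of 41 replication genes. It held for 16.5% of genes averaging 1 RPKM or more, a filter that 5 of the 41 do not pass. That filter changes the share higher in culture 1 than in culture 3, from 62.2% of all genes with a read to 38.8%. The 41 thus have no matched share for this order. The median ratio of culture 1 to culture 3 was 2.38 for the mitotic genes and 1.07 for the replication genes. The median level of the mitotic genes was 4.11, 11.1 and 2.42 RPKM in cultures 1, 2 and 3, beside 2.51, 4.74 and 1.73 RPKM for the 41 replication genes. The difference between the lists was not tested, and TOP2A belongs to the mitotic and the replication pathway lists.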

How the data were processed

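RNA was prepared with TruSeq V2 libraries, per the labels' protocols. The authors deposited 1 table of RPKM with 1 column per culture, and, per the submitters' processing notes, coordinates refer to susScr11. The sources used here do not give the aligner, counter, annotation release or strand setting. RPKM times gene model length (the listed length plus 1 base) gave whole reads for 100% of the deposited values, within 1e-06 of a read, and the columns were scaled by these sums, so composition was not adjusted for. At these depths 3 reads over a 2 kb model, the limit that a count of 0 allows, equal 0.029, 0.024 and 0.023 RPKM in cultures 1, 2 and 3. Intervals and floors cover counting error only.

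Levels were tested against 1 RPKM with limma 3.58.1 (R 4.3.3) on log2(RPKM + 0.5) over 29479 genes with at least 1 read, with trended, robust prior variance, and spread over 10474 genes averaging 1 RPKM or more. The pseudocount understates differences of low genes. Adjusted p-values are Benjamini-Hochberg values over all genes tested, with a threshold of 0.05. Both tests were run on simulated data. The spreads set there for the spread test were larger than that of any of the 41 genes, whose largest log2 SD was 1.39 (MCM3). The simulation therefore does not show whether the test could find spreads of the size seen here. P-values measure only the spread between these samples. Ratios between cultures carry 95% Clopper-Pearson intervals of the recovered reads (scipy 1.17.1). Ratio counts were also taken over all 41 genes without the planned filter. Overlaps were taken from the table's gene bodies, and RefSeq spans from its Sscrofa11.1 annotation.

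The members and lists were chosen with earlier results of these data known. Every member was to be given with its values or in its group's range, and from each further list the 3 genes of highest mean and the 3 of widest range, of which only some are printed. Alternatives were other pseudocounts, scalings, filters, voom weights, each culture left out, and members named by ID. A planned promoter motif search was not run, since no sequences were used here.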

Additional observations from a re-analysis of the deposited data

How the results depend on the processing

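Counts of genes above and below 1 RPKM stayed within 1.5 times under each pseudocount, scaling, filter, voom weighting and left-out culture tried, at 18 to 29 above and 2 to 3 below. Restricted to genes with no overlap, a choice made after seeing the data, 15 of 27 lay above and 1 below, and 21 of 23 averaging 1 RPKM or more were highest in culture 2. These counts are lower because fewer genes were counted. The filtered count with an unadjusted spread p under 0.05 (limma) was 8 and fell to 3 with TMM factors, for which the cause was not tested. It ran from 0 to 16 with a culture left out. The adjusted count ran from 0 to 1. The range of the 41 genes' filtered median over the cultures was 2.23-fold, and 1.08-fold to 2.23-fold with a culture left out, lowest without culture 2. Of the 13 genes not decided against 1 RPKM, 6 turned the sign of their log2 difference without culture 2, and with a culture left out it ran from -0.12 to 0.42 for CCNE2, -0.17 to 0.77 for CDC45, -0.36 to 0.49 for E2F1, -0.38 to 0.24 for LIG1, -0.080 to 0.39 for RFC3 and -0.52 to 0.44 for UHRF1. LIG1 also turned with a pseudocount of 0.1 RPKM (-0.028), median-of-ratios factors (-0.0011) and voom weights (-0.035). No paired analysis was possible because there is a single group. Low depth limits GINS2, FEN1, POLD1, POLD2 and CDC6, whose counting intervals are wide. E2F1 and TK1 also had few reads in culture 3, at 93 and 99. Their ratios of culture 2 to culture 3 had counting intervals of 4.17 to 6.59 and 5.04 to 7.80.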
